A study of Mus musculus with 8 samples.

Results

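The LIF-only co-bound sites are stretches of the mouse genome at which peaks of at least 2 of the factors FGFR1, RXR and Nur77 overlapped in embryonic stem cells (ESCs), and at which no peak was listed after retinoic acid. Peaks of the 3 lists from ESCs were merged where they shared at least 1 bp, which gave 48403 sites. Of these, 11682 were co-bound, with peaks from 2 or 3 lists. A co-bound site was kept as LIF-only when it overlapped no peak of any of the 5 lists from retinoic acid treated cells. This left 1265 sites, chosen by the listed peaks alone, 10.8% of the co-bound sites (exact Clopper-Pearson 95% interval 10.3 to 11.4). All 3 factors had peaks at 84 of them, and the rest had peaks of 2 factors. Since the sites were selected on the presence and absence of peaks, their number and their peak strengths are descriptions and not tests of a change. The number depends on single lists: it was 2028 without the first of the FGFR1 lists from treated cells, and 328, 804 or 305 when the RXR, FGFR1 or Nur77 list from ESCs was not used.

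The lists come from ChIP-seq, in which an antibody pulls down a protein with the DNA fixed to it, and the genome is searched for pile-ups of the sequenced fragments. All cells were of the mouse ESC line E14Tg2a at passages 37 to 40, a single line, and chromatin was made from pooled plates. ESCs were kept with leukemia inhibitory factor (LIF), the cytokine that holds them pluripotent through STAT3. Neuronal cells (NCs) were LIF-free monolayers given 1 µM retinoic acid (RA) for 48 h, so LIF withdrawal and RA cannot be told apart. Antibodies to FGFR1, RXR and Nur77 were used in both states, and NCs were also probed for the histone variant H3.3. There were 2 libraries of FGFR1 in NCs, here replicate 1 and replicate 2 (labelled Exp2, and described in the paper as a second replicate). Their peaks had a median width of 89 bp in replicate 1 and 311 bp in replicate 2. The remaining 6 groups had a single library.

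FGFR1 is a receptor tyrosine kinase for fibroblast growth factors, and a form of it enters the nucleus. RXR is the partner with which retinoic acid receptors and many other nuclear receptors pair, and it binds the word AGGTCA, usually as a repeat. Nur77 (Nr4a1) is an orphan nuclear receptor that binds a related word as a monomer and can also pair with RXR. ESCs leave the pluripotent state when LIF is withdrawn, and retinoic acid drives them towards neural fates.

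The inferred depth differed between libraries, and depth can bear on which sites are listed. The background inferred from the lists fell from 7.09 fragments per kb in RXR_LIF to 1.87 in RXR_RA. For Nur77 it was 4.98 in LIF and 3.82 in RA. FGFR1_LIF had 2.71, its RA replicates 4.16 and 6.78, and the H3.3 library 1.27. RXR was therefore the factor whose RA library was much shallower than its LIF library.

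The sequences show what kind of places the LIF-only sites were. Each line below gives 100 bp around the strongest summit of a site in mm10, plus strand, read from the GRCm38 reference. The first set comes from proximal promoters, the regions within 1000 bp of a transcript start. These sites were tract-free, that is, without a stretch of 20 bp or more in which purines and pyrimidines alternate, and capitals mark CpG dinucleotides. They show the range from CpG-rich windows at Otx2, Eif3j1, Rab28 and Atg14 to windows at Fancf and Sfi1 that were almost or wholly free of CpG.
Otx2, chr14:48674051-48674150: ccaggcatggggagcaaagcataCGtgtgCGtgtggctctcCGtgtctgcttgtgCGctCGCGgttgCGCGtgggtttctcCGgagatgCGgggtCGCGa
Eif3j1, chr2:122029008-122029107: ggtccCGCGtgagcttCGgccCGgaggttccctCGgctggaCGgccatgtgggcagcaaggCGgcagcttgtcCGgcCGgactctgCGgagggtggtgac
Rab28, chr5:41707748-41707847: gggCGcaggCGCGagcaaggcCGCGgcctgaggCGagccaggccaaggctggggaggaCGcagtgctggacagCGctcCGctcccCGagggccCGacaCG
Atg14, chr14:47568236-47568335: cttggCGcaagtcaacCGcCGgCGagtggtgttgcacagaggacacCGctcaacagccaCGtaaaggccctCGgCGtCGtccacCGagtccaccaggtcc
Tmem196, chr12:119946513-119946612: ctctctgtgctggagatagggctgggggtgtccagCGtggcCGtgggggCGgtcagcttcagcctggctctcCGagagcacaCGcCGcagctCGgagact
Kdm2b, chr5:122880356-122880455: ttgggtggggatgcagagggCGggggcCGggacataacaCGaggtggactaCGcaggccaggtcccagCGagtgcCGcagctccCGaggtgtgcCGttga
Fancf, chr7:51861350-51861449: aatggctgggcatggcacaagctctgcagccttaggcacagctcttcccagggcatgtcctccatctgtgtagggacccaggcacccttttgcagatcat
Sfi1, chr11:3192432-3192531: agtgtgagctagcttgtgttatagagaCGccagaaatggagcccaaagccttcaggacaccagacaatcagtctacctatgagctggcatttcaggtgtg
The next set holds sites with a tract, the commonest kind among the LIF-only sites, and capitals mark the longest alternating stretch in the window. The Tgfb2 and Agpat1 sites lay in proximal promoters and the other 3, numbered by the −log10 p of their weaker peak, lay between genes.
Tgfb2, chr1:186706268-186706367: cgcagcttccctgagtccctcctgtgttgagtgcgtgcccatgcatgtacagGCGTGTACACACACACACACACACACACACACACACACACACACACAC
Agpat1, chr17:34609486-34609585: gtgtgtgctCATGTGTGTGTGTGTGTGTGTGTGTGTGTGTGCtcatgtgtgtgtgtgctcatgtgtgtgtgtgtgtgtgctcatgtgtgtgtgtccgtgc
tract site 1, chr1:165132260-165132359: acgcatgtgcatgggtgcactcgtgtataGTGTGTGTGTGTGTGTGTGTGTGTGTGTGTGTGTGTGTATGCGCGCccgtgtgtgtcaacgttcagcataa
tract site 2, chrX:155355224-155355323: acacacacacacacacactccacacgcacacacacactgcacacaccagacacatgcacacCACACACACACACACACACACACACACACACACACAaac
tract site 3, chr6:6908347-6908446: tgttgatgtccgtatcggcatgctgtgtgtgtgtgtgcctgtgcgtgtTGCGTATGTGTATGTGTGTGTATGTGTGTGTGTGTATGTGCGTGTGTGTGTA
The last set holds the 4 tract-free sites with the 9-letter word of the orphan receptor ESRRB (TCAAGGTCA, in capitals on either strand), shown because they carried the longest nuclear receptor word searched. They were picked after their sequences were searched.
ESRRB-word site 1, chr1:179198906-179199005: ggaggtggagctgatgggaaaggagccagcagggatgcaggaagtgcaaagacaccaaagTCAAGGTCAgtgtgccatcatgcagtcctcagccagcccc
ESRRB-word site 2, chr15:25742382-25742481: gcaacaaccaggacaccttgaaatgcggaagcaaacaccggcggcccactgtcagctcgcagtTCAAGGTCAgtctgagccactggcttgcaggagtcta
ESRRB-word site 3, chr2:75861235-75861334: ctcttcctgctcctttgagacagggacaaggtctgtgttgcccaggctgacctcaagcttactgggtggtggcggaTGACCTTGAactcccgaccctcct
ESRRB-word site 4, chr6:100482633-100482732: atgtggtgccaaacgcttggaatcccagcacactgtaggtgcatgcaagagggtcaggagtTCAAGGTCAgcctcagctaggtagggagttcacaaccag

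The factor sets of the LIF-only sites were led by RXR with Nur77. These 2 nuclear receptors without FGFR1 made up 715 of the 1265 sites (56.5%, 95% interval 53.7 to 59.3). FGFR1 with Nur77 made up 247 (19.5%), FGFR1 with RXR 219 (17.3%) and all 3 factors 84 (6.64%). The co-bound sites that did overlap an RA peak, called retained sites here (n = 10417), were 37.6% RXR with Nur77 and 37.4% all 3 factors. Read the other way, 22.0% (19.6 to 24.6) of the FGFR1 with Nur77 sites had no RA peak, against 15.4% (14.4 to 16.5) of RXR with Nur77, 11.2% (9.87 to 12.7) of FGFR1 with RXR and 2.11% (1.69 to 2.61) of the sites of all 3. Sites with a peak in a single LIF list lacked an RA peak in 54.9% (54.3 to 55.4). All these intervals are exact Clopper-Pearson intervals at 95% and cover counting error only, and sites of the same libraries are not replicates.

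The LIF-only sites were weaker and narrower than the retained sites in the lists that chose them. The median −log10 p of the FGFR1 peaks was 11.5 at LIF-only and 13.3 at retained sites, that of RXR peaks 10.5 and 12.7, and that of Nur77 peaks 10.4 and 11.8. The median number of fragments under a summit was 10 against 12 for FGFR1, 11 against 14 for RXR and 10 against 12 for Nur77. So few fragments limit the precision of each peak. Sites were LIF-only in 15.1% of cases when the weakest peak had a −log10 p from 5 to 8, and in 1.53% (14 of 917) when it was at least 20. The median width was 139 bp against 188 bp, and 26.2% of sites under 120 bp were LIF-only against 0.789% of those of at least 300 bp. A wide site has more positions at which a 1 bp overlap can occur, and the part of width and strength in these shares was not tested.

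**Figure D1:**
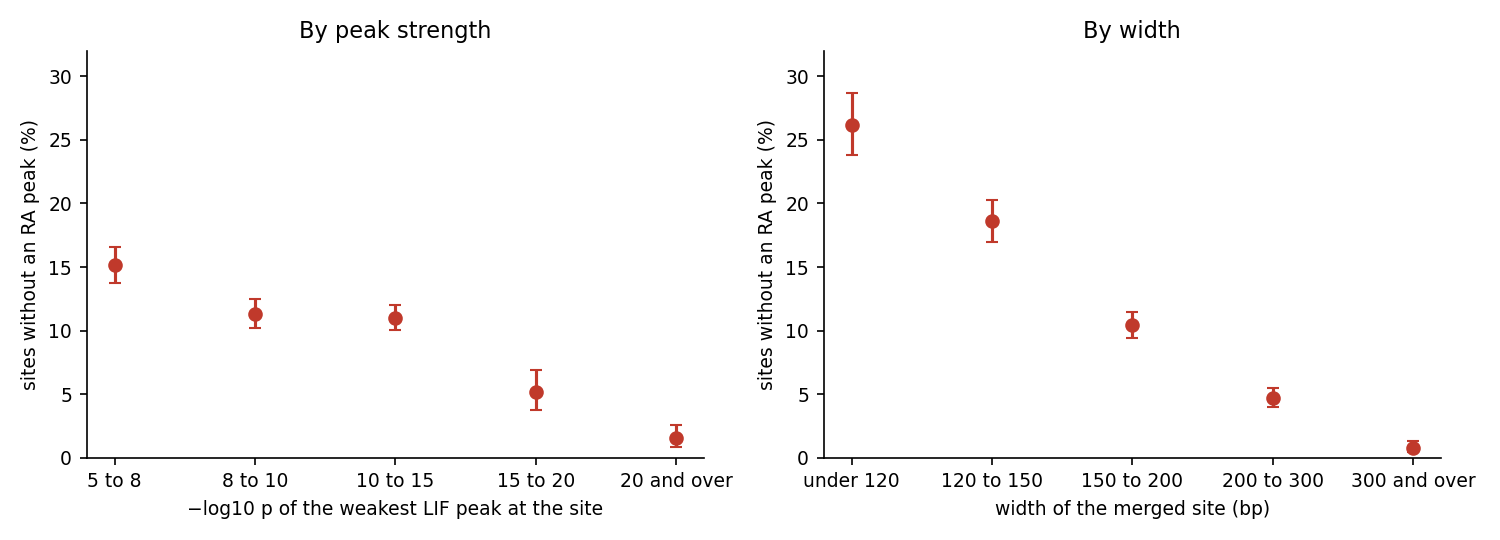
Share of the 11682 co-bound LIF sites that had no RA peak, in percent, by the −log10 p of the weakest LIF peak at the site (left) and by the width of the merged site in bp (right). Points are shares and bars exact 95% intervals; the share falls from 15.1% to 1.53% with strength and from 26.2% to 0.789% with width.

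RXR was the factor whose LIF peaks came closest to the calling limit of the RA library after scaling for depth. The fragments at each LIF summit were scaled to the RA library of the same factor, as if binding had not changed, and compared with the fewest fragments that the RA list could call. Scaled by fragments per kb (a ratio of 0.264 for RXR), 13.9% (141 of 1018) of the RXR peaks at LIF-only sites and 37.3% at retained sites reached the limit. Scaled by the background, taken as the lowest solved in each list (a ratio of 0.382), the shares were 62.1% (632 of 1018) and 82.9%. For Nur77 the share at LIF-only sites was 96.7% (1011 of 1046) on either scale. For FGFR1 it was 100% (550 of 550) by fragments per kb against either replicate, and 99.6% by the background against replicate 1. The 100% could not have been lower. No FGFR1_LIF peak had fewer than 5 fragments, the ratios were 1.54 and 2.501, and the limits 5 and 8 fragments. All 11378 peaks of FGFR1_LIF reached the limit, so the 100% does not tell whether these sites could be listed. Every factor of a site reached the limit at 381 of the 1265 sites (30.1%) on the first scale and at 858 (67.8%) on the second. At retained sites, RXR_RA listed a peak at 45.0% (2693 of 5982) of the RXR_LIF peaks that the first scale put below the limit, beside 71.8% of those at the limit, so the scaling does not settle which peaks could be listed. The part of depth in the missing RXR peaks was not tested.

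In position, 20% of the LIF-only sites (253; 17.8 to 22.3) lay in proximal promoters, against 45.8% (44.8 to 46.8) of the retained sites. A further 37.8% (35.1 to 40.5) lay in gene bodies, 33.5% (30.9 to 36.2) between genes and 8.70% (7.20 to 10.4) in distal promoters, from 5000 to 1000 bp upstream. Retained sites had 25.2% in gene bodies and 22.3% between genes. The converse set, called RA-only sites here, had peaks of at least 2 of FGFR1 replicate 1, RXR and Nur77 in NCs and no peak of the 3 LIF lists (n = 4911). It had 28.4% in proximal promoters, between the other sets, though it had to avoid 3 lists where the LIF-only sites had to avoid 5. An RA peak lay in the proximal promoter of 63.3% of protein-coding genes, and the rule removed every site that touched an RA peak. The promoter share is therefore not independent of the rule, and all settings drew on the same 8 libraries. The lower promoter share of LIF-only sites than of retained sites held in all 21 settings tried, the reported one included. Its size did not: without FGFR1_RA replicate 2, whose peaks were the widest, the LIF-only promoter share was 32.2%. It was 9.15% without the RXR_LIF list and 12.1% without Nur77_LIF, and it was 39.8% against 43.9% when a site needed to avoid only the RA lists of its own factors.

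Position and tract together separated the sites further. Of co-bound sites in proximal promoters without a tract, 4.60% (214 of 4657; 4.01 to 5.24) were LIF-only. Without a tract in gene bodies this was 20.97% (198 of 944; 18.4 to 23.7), and between genes 19.03% (137 of 720; 16.2 to 22.1). With a tract the shares were 13.0% in gene bodies, 14.2% between genes and 10.6% in proximal promoters. Outside proximal promoters tract-free sites were thus LIF-only more often than tract sites in gene bodies and between genes, where the intervals did not overlap. In distal promoters the shares were 16.9% and 11.9% and their intervals overlapped. In proximal promoters the order was the opposite.

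**Figure D2:**
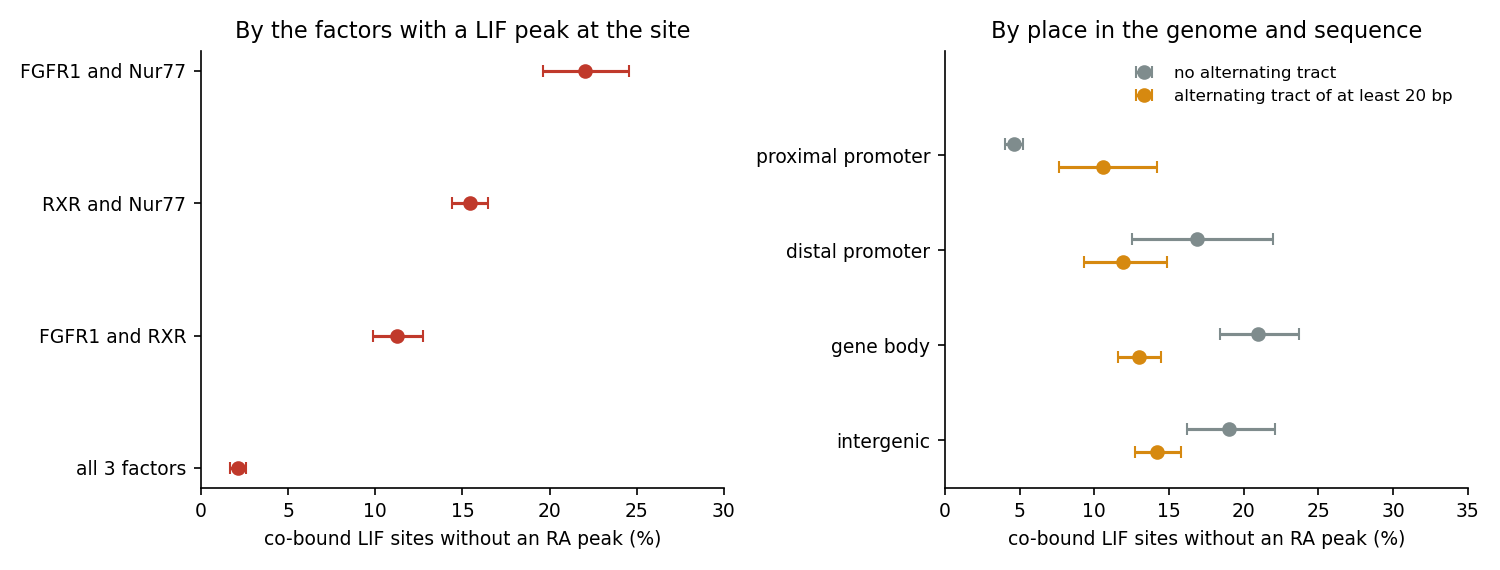
Share of co-bound LIF sites without an RA peak, in percent, by the factors with a LIF peak (left) and by place in the genome for sites with and without an alternating tract (right). Points are shares and bars exact 95% intervals; sites of all 3 factors (2.11%) and tract-free promoter sites (4.60%) are lowest, and tract-free gene body sites reach 20.97%.

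Alternating purine-pyrimidine tracts, mostly runs of CA on 1 strand and TG on the other, can take up the left-handed Z form of DNA and are also known for slippage. A tract of at least 20 bp lay in 672 LIF-only sites (53.1%; 50.3 to 55.9), in 42.5% (41.6 to 43.5) of the retained and in 34.9% of the RA-only sites. The higher overall share came with the lower promoter share. Within proximal promoters 15.4% (39 of 253) of LIF-only sites held a tract against 6.89% of retained sites, but outside them the order turned, with 62.5% (633 of 1012; 59.5 to 65.5) against 72.6% (71.4 to 73.8). Without FGFR1_RA replicate 2 the overall shares were 43.9% and 43.6%, and with only the RA lists of the same factors the LIF-only share was below the retained one, 37.8% against 45.3%. The tract share of LIF-only sites also ran from 36.4% at RXR with Nur77 sites to 78.1% at FGFR1 with Nur77 sites and 82.1% at sites of all 3 factors.

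The tracts at LIF-only sites were shorter than at retained sites (median 39 against 53 bp) and more often of the CA type. Tracts were measured within the merged site, and the tract sites had a median width of 137 bp against 172 bp. The part of width in tract length was not tested. A site with a tract of 20 to 30 bp was LIF-only in 21.7% (18.6 to 25.1) of cases, one of 40 to 60 bp in 15.3%, one of 60 to 100 bp in 6.90% and one of at least 100 bp in 2.24% (16 of 713). Repeats of the CA type, in which at least 80% of the steps were CA and AC or their complements, made up 465 of the 672 tracts (69.2%; 65.6 to 72.7), against 53.5% at retained and 55.8% at RA-only sites. The LIF-only repeats of this type had a median length of 38 bp. Mixed tracts were those in which no type reached 80%. The mixed tracts with at least 20% of the steps CG or GC made up 4.46% (3.03 to 6.31) at LIF-only sites against 20.4% at retained and 24.5% at RA-only sites. The other mixed tracts made up 26.3% (177 of 672; 23.0 to 29.8) at LIF-only, 26.1% at retained and 19.8% at RA-only sites. No tract was an AT-type or CG-type repeat by the same limit at LIF-only sites (0 of 672, which allows up to 0.547%). The same held at retained sites (0 of 4428) and RA-only sites (0 of 1713), so this absence is shared by the 3 sets.

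**Figure D3:**
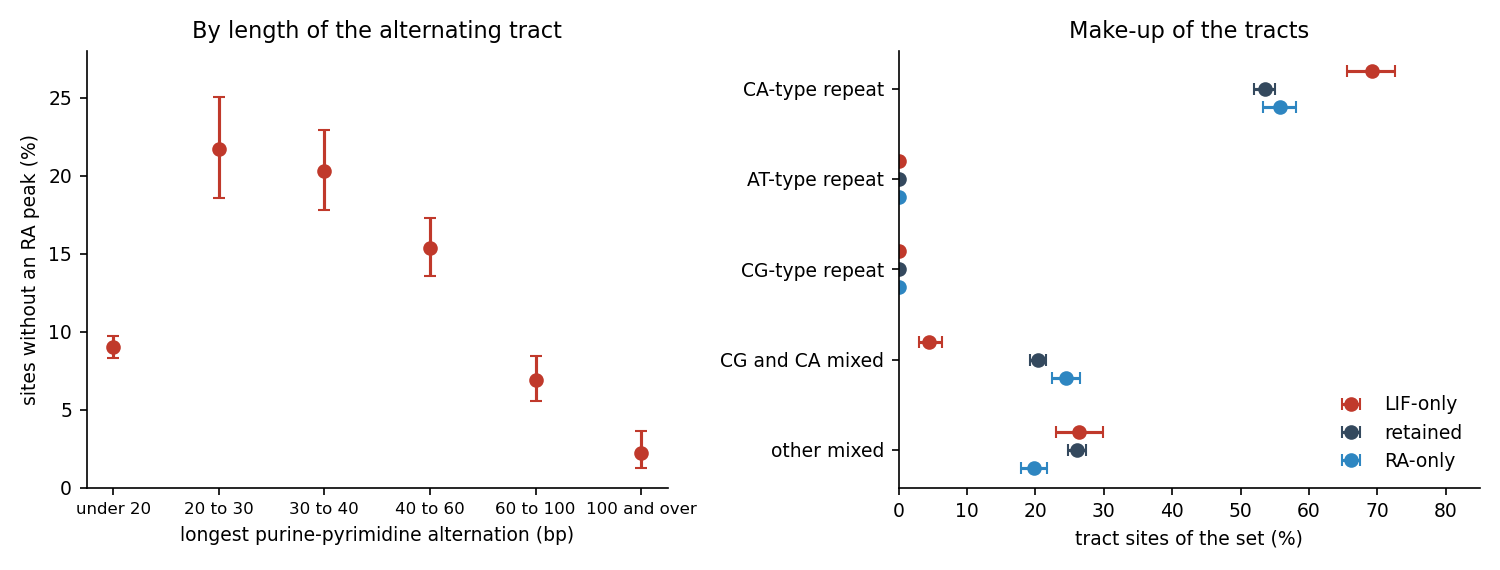
Left, share of co-bound LIF sites without an RA peak, in percent, by the length in bp of the longest purine-pyrimidine alternation. Right, make-up of the tracts of at least 20 bp in LIF-only, retained and RA-only sites, in percent of the tract sites of each set. Bars are exact 95% intervals. The class labelled CG and CA mixed was set by its CG and GC steps alone and is at 4.46% of LIF-only tracts against 20.4% and 24.5%.

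The strongest LIF-only sites carried tracts. The highest value for the weaker peak was at chr5:59214109-59214247, a 139 bp site with a 46 bp tract within 1000 bp of an annotated start, where the FGFR1 peak had a −log10 p of 39.6 from 25 fragments and the Nur77 peak 41.7 from 28 fragments. The nearest RA peak was 341588 bp away. Tract site 1, chr1:165132226-165132385, had −log10 p values of 32.3 for RXR (27 fragments) and 28.7 for Nur77 (24 fragments). Tract site 2, chrX:155355208-155355413, was bound by all 3, with 28.4 for FGFR1, 36.6 for RXR and 29.2 for Nur77. Tract site 3, chr6:6908317-6908487, had 40.7 for FGFR1 and 25.1 for RXR around an 82 bp tract. These 4 sites were not near the calling limit in LIF, and the nearest RA peak lay 2751 bp (tract site 3) or more away.

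The strongest tract-free sites outside promoters were mostly repeat sequence. The first, chrY:90801509-90801629, had −log10 p values of 21.9 for RXR and 24.2 for Nur77. It lay in an intron of Gm47283. The sites at chr5:25816519-25816622, in an intron of Actr3b, and chr15:75085720-75085808 lay wholly in repeat-masked sequence, and the chrY site was repeat-masked over 92.6% of its length. At chr15:75085720-75085808 an RXR peak of 32 fragments had a fold of 7.25 over its local background, so that background was high. The site at chr4:145564752-145564891, between genes, was 5% repeat-masked, with −log10 p values of 17.5 for RXR and 19.3 for Nur77 from 15 fragments each. The nearest RA peak was 91 bp away at the chr15 site, 515 bp at the Actr3b site, 960 bp at the chrY site, 7803 bp at the chr4 site and 13185 bp at the remaining site, in an intron of Gm30003.

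The proximal promoter sites lay further from the start than the retained and RA-only promoter sites. Their summits had a median position of +191 bp relative to the nearest transcript start, with quartiles of -51 and +389 bp. Retained promoter sites had a median of +23.5 bp and RA-only promoter sites of +29 bp. The rule removed every site that touched an RA peak, and promoter summits of the RA-only set lay close to starts. The offset of the LIF-only summits is therefore not independent of the rule. Within 250 bp of the start lay 43.5% (110 of 253; 37.3 to 49.8) of the LIF-only summits against 78.7% (77.5 to 79.9) of the retained and 65.8% (63.3 to 68.3) of the RA-only ones. The bin from +250 to +500 bp held 27.7% of LIF-only and 8.91% of retained promoter summits. The tract-free promoter sites had a median GC content of 66% and 7 CpG dinucleotides in 100 bp, against 70% and 11 at retained sites.

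Many of these promoter sites had an RA peak beside them. An RA peak lay within 1000 bp of 155 of the 253 promoter sites (61.3%; 55.0 to 67.3) and of 128 of the other 1012 (12.6%; 10.7 to 14.9). At 116 of those 155 (74.8%) the summit of the nearest RA peak was closer to a transcript start than the LIF-only summit. A LIF-only site could not overlap an RA peak, so this order is not independent of the rule. The median distance to the closest start was 85 bp for the RA summit and 287 bp for the LIF-only summit, and the summits were a median of 356 bp apart. A different LIF site that did overlap an RA peak lay within 1000 bp of 101 of the 253 (39.9%; 33.8 to 46.2). Over all 1265 sites the nearest RA peak was a median of 7078 bp away (2 to 700794 bp), and 515 sites (40.7%) had none within 10000 bp.

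**Figure D4:**
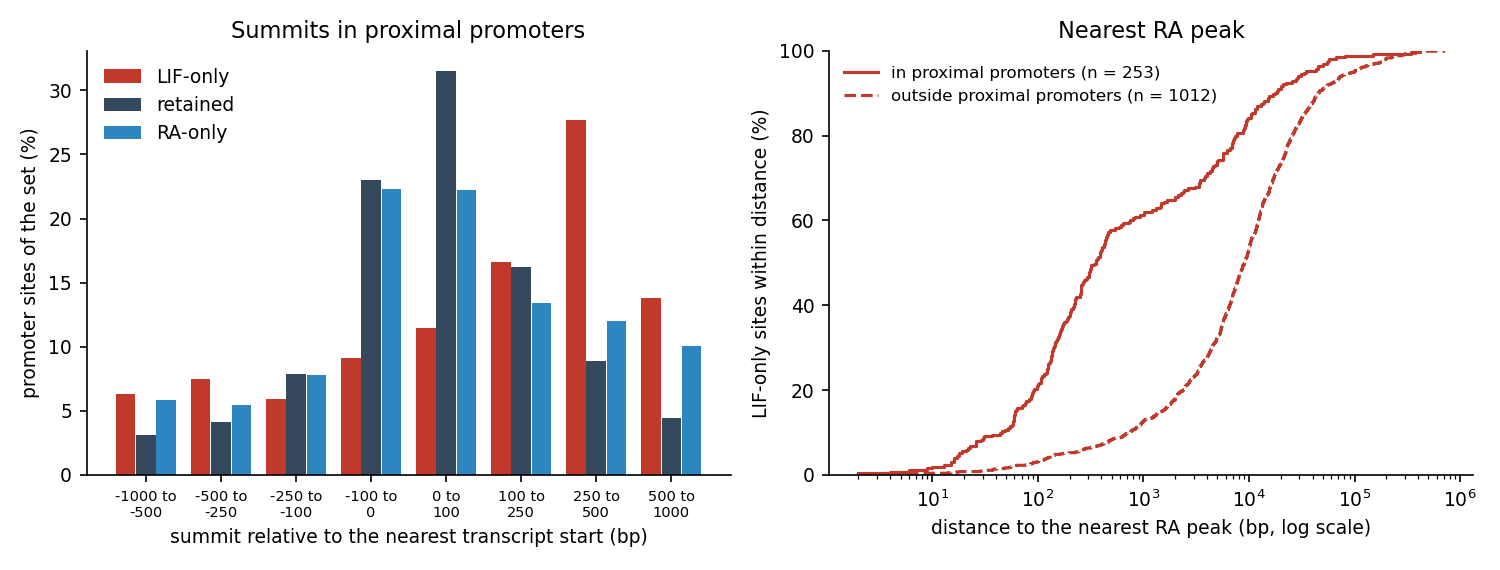
Left, summits of proximal promoter sites by position relative to the nearest transcript start in bp, as percent of the promoter sites of each set (253 LIF-only, 4772 retained, 1393 RA-only). Right, cumulative percent of LIF-only sites by distance to the nearest RA peak in bp on a log axis; 61.3% of the promoter sites and 12.6% of the others have one within 1000 bp.

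The rule has a threshold of 1 bp, and few sites were near it. Of the LIF-only sites 9 had an RA peak within 10 bp without touching it, and 84 (6.64%) within 100 bp. Of the retained sites 9 overlapped an RA peak by at most 10 bp at best. FGFR1_RA replicate 1 overlapped 84.0% of the retained sites, Nur77_RA 66.5%, RXR_RA 53.6%, the H3.3 list 43.6% and FGFR1_RA replicate 2 36.8%.

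The LIF-only sites lay in the proximal promoter of 229 of 21951 protein-coding genes (1.04%). Of these genes 188 (82.1%) had an RA peak elsewhere in their proximal promoter, against 63.3% of all protein-coding genes, and 41 had none. The 229 genes were picked for LIF promoter sites, while 10765 of the 21951 genes had a LIF peak in a proximal promoter. The 63.3% is therefore not a matched comparison. FGFR1_RA replicate 1 had a promoter peak at 160 of the 229, replicate 2 at 135, Nur77_RA at 91, RXR_RA at 70 and H3.3 at 50. The shares of all genes by list were not computed, so these counts show no excess or lack.

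Listed genes of stem cell and signalling pathways had LIF-only promoter sites at a share near that of all genes. Of 436 genes in 14 lists, 7 (1.61%) had a LIF-only site in the proximal promoter, beside 1.04% of all protein-coding genes. At that share a list of 15 to 50 genes would hold 1 or none, so a count of 0 says nothing about a list. None was found at the 15 genes of the pluripotency core, which include Pou5f1 and Sox2, and 12 of these 15 had some RA peak in a proximal promoter. None was found at 20 genes of LIF and STAT3 signalling, 22 of retinoid receptors and metabolism, 30 RXR partners and orphan receptors, 39 Hox genes, 20 mesodermal genes, 26 neural genes, 48 genes of the cell cycle and p53, and 28 of CREB and CBP. The naive and exit-related list had 2 of 40, FGF and ERK signalling 2 of 33, and the TGF-beta and BMP (38 genes), Wnt (48) and chromatin regulator (50) lists 1 each.

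The 2 genes of the naive and exit-related list were Otx2 and Nr0b1. Otx2 encodes a homeodomain factor of the exit from naive pluripotency and of the forebrain. Its site, chr14:48674038-48674266, had its summit at -282 bp, within the antisense gene Otx2os1, with a −log10 p of 8.77 for RXR (9 fragments) and 11.8 for Nur77 (10 fragments). Nur77_RA had a peak elsewhere in the Otx2 promoter, and the nearest RA peak to the site was 8907 bp away, so that peak belongs to another start of the gene. Nr0b1 encodes Dax1, an orphan receptor that represses other nuclear receptors and is highly expressed in ESCs. Its site, chrX:86191707-86191907, was in coding sequence at +65 bp, with 9.87 for FGFR1 (8 fragments) and 5.20 for Nur77 (5 fragments), and a Nur77_RA peak lay 137 bp away.

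The signalling genes included Tgfb2, Wnt5a and Braf. At Tgfb2, a ligand of the TGF-beta family, the site at chr1:186706231-186706398 lay at -329 bp on a 66 bp tract, with −log10 p values of 10.8 for FGFR1 and 7.48 for Nur77, and no RA peak was listed in the promoter. At Wnt5a, a ligand of noncanonical Wnt signalling, a site with a 23 bp tract at chr14:28505261-28505423 had 18.1 for RXR (22 fragments) and 14.2 for Nur77 (16 fragments), and FGFR1_RA replicate 1 had a peak 356 bp away. The kinase gene Braf had its site at +449 bp (chr6:39724666-39724772; 6.01 for RXR and 8.87 for Nur77). Kdm2b, a histone demethylase that recruits a Polycomb complex to CpG islands, had a site of FGFR1 and RXR at +679 bp (chr5:122880365-122880489; 10.1 and 11.5), 23 bp from an FGFR1_RA replicate 1 peak, and all 5 RA lists had peaks elsewhere in its promoter.

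The strongest tract-free promoter sites belonged to genes of varied function. Tmem196 led, with −log10 p values of 13.2 for RXR (12 fragments) and 16.2 for Nur77 (13 fragments) at +5 bp (chr12:119946509-119946633). No RA list had a peak in its promoter, and the nearest RA peak was 418637 bp away. The same absence held at Nipsnap3a, where FGFR1 had 10.9 and Nur77 13.2 at +1 bp (chr4:52989366-52989513). At the other genes an RA list had a promoter peak. Alms1, which encodes a centrosome and basal body protein, had 13.1 for FGFR1 and 11.3 for RXR. Sfi1, which encodes a centrin-binding protein, had 16.4 for RXR and 12.8 for Nur77. Its site, at +925 bp, rested on 54 RXR and 43 Nur77 fragments with folds of only 3.74 and 3.55, so the local background there was high.

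The remaining genes of this group were close to RA peaks. Hhip, an inhibitor of hedgehog ligands, had 13.5 for RXR and 12.1 for Nur77 at +435 bp, 254 bp from an RA peak. The translation initiation factor gene Eif3j1 had 17.5 for RXR and 11.6 for Nur77 at +406 bp, 198 bp from an FGFR1_RA replicate 2 peak. Fancf, of the Fanconi anemia DNA repair complex, shared 1 site with the neighbouring Gas2, at +867 bp of the first and -615 bp of the second, with 11.9 for FGFR1 and 12.8 for Nur77. Tmem41b, which encodes a lipid scramblase of the endoplasmic reticulum, had 11.8 for RXR and 11.5 for Nur77, 60 bp from an RA peak. The G protein gene Gna13 had 11.5 and 10.98, 221 bp away. Ybx3, a cold-shock domain protein gene, had 11.6 and 16.7 at +684 bp in mostly repeat-masked sequence (74.0% of the site), with the nearest RA peak 10561 bp away.

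Promoter sites of all 3 factors were few. Among the 84 sites of this kind 9 (10.7%; 5.02 to 19.4) lay in proximal promoters. The phospholipid synthesis gene Agpat1 had the strongest, on a 33 bp tract at -69 bp (chr17:34609434-34609595), with 19.9 for FGFR1 (23 fragments), 11.8 for RXR (20) and 22.9 for Nur77 (28). The phospholipase C gene Plcb4 had 16.6, 13.2 and 11.8 in the same order, on a 36 bp tract. Rbm47, an RNA-binding protein gene, had 11.4, 10.7 and 14.3 with no tract. Atg14, a subunit of the autophagy lipid kinase complex (chr14:47568180-47568338; 10.9, 7.995 and 8.997), and Prps2, a nucleotide synthesis enzyme gene (chrX:167382451-167382755; 11.8, 10.5 and 7.68), had no RA peak in the promoter, with the nearest at 80804 bp and 150055 bp. Rab28, Fbll1 and 0610010F05Rik were the others named by the rule, and their sites were 22, 134 and 148 bp from an RA peak.

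In gene bodies most genes held a single LIF-only site. Of the protein-coding gene models with a site between start and end, 632 held 1, 29 held 2 and 3 held more. Camta1, a calmodulin-binding transcription activator gene of 945 kb, held 3 sites, all with tracts and all with FGFR1 and Nur77 peaks, the strongest of all 3 factors at chr4:151562507-151562652. Sulf1, a heparan sulfate editing enzyme gene of 169 kb, held 3, of which 2 were tract-free. Gm20388 held 6, but this read-through model spans 4435 kb and many other genes. Of the 436 listed genes, 11 had a LIF-only site between start and end and none in the proximal promoter. This is a similar share to that of all protein-coding genes, 467 of 21951. Among the 11 were Tet1, Stat5b, Gab1, Esrrg and Crebbp. At Esrrg, an orphan receptor gene, the intronic site (chr1:187874032-187874145) had a 26 bp tract and a weaker −log10 p of 10.9, and at Tet1, which oxidises 5-methylcytosine, the tract-free site had 7.68. The LIF-only sites were scattered, with another of them within 10000 bp at only 10 of the 1265.

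The tract-free LIF-only sites held fewer of the words that mark active promoters than the tract-free retained sites did. Words were searched on both strands in 100 bp around the summit, and the same search was made in 100 bp windows spaced across the genome. The ETS word CCGGAAG was in 2 of 593 tract-free LIF-only sites (0.337%; 0.0409 to 1.21) and in 3.86% (3.38 to 4.38) of tract-free retained sites. The GC box GGGGCGGGG was in 0.337% against 2.94%, the NRF1 word GCGCATGCG in 0.169% against 1.59%, and the YY1 word AAGATGGCG in 0.169% against 1.15%. The cAMP response element TGACGTCA was in 0 of 593 (which allows up to 0.620%) against 1.35% (1.08 to 1.68). The E-box CACGTG was in 3.04% (1.81 to 4.75) against 5.18% (4.63 to 5.77). In the genome windows the shares were 0.282% for the ETS word, 0.149% for the GC box, 0.0113% for NRF1, 0.102% for YY1, 0.0662% for the cAMP response element and 0.983% for the E-box, so the LIF-only share was above that of the genome for each word but the cAMP response element, resting on 1 or 2 sites for all of them except the E-box. LIF-only sites were less often in promoters, so the promoter sites were also compared alone. There the ETS word was in 1 of 214 (0.467%; 0.0118 to 2.58) against 5.04% (4.42 to 5.73), while the intervals for the other words overlapped.

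Nuclear receptor words were not less frequent at the LIF-only sites. The core word AGGTCA was in 42 of 593 tract-free LIF-only sites (7.08%; 5.15 to 9.45), in 4.16% (3.67 to 4.69) of tract-free retained sites and in 4.82% (4.099 to 5.62) of RA-only ones. In windows 400 bp to either side of the LIF-only summits it was in 5.06%, and in windows across the genome in 5.46%, a value within the interval of the LIF-only sites. Of the 42 sites 34 had the word outside repeat-masked sequence. Those 34 were 5.73% (4.003 to 7.92) of the tract-free LIF-only sites, against 4.01% (3.52 to 4.54) at tract-free retained sites, and these intervals overlapped. With masked sequence included, the LIF-only and retained intervals also overlapped within proximal promoters and outside them, when each was taken alone. The NBRE word AAAGGTCA, which contains the core word and is bound by Nur77 as a monomer, was in 2 of 593 (0.337%; 0.0409 to 1.21) against 0.100% of retained sites and 0.569% of genome windows. The ESRRB word TCAAGGTCA, which also contains the core word, was in the 4 sites printed above (0.675%; 0.184 to 1.72) against 0.0835% (0.0271 to 0.195) of retained sites and 0.212% of genome windows.

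All 4 ESRRB-word sites were bound by RXR with Nur77. Peaks of both receptors were at 470 of the 593 tract-free LIF-only sites, so this pairing was the usual one there. The 4 ESRRB-word sites lay in introns of Smyd3 and Agps, at the Myo10 promoter and between genes on chromosome 6. Their weaker −log10 p values ran from 7.90 to 10.3, and the nearest RA peak was 9145 to 39789 bp away. In 3 of the 4 the word was in repeat-masked sequence. The KLF4 word GGGTGTGG was in 13 of 593 (2.19%; 1.17 to 3.72) against 1.02% (0.780 to 1.31) at retained sites, 1.88% (1.43 to 2.41) at RA-only sites, 1.01% in the LIF-only flanks and 0.569% of genome windows. The octamer ATTTGCAT, the Sox word AACAATGG and the STAT3 word TTCCNGGAA were each in 0 of 593, which allows up to 0.620%. In the same order they were in 0.0501%, 0.0835% and 0.0501% of tract-free retained sites and in 0.896%, 0.475% and 0.278% of genome windows. The CTCF motif was in 1.01% (0.372 to 2.19) of LIF-only, 1.10% of retained and 3.94% of RA-only sites. A word in a window describes the sequence and is not a bound site.

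**Figure D5:**
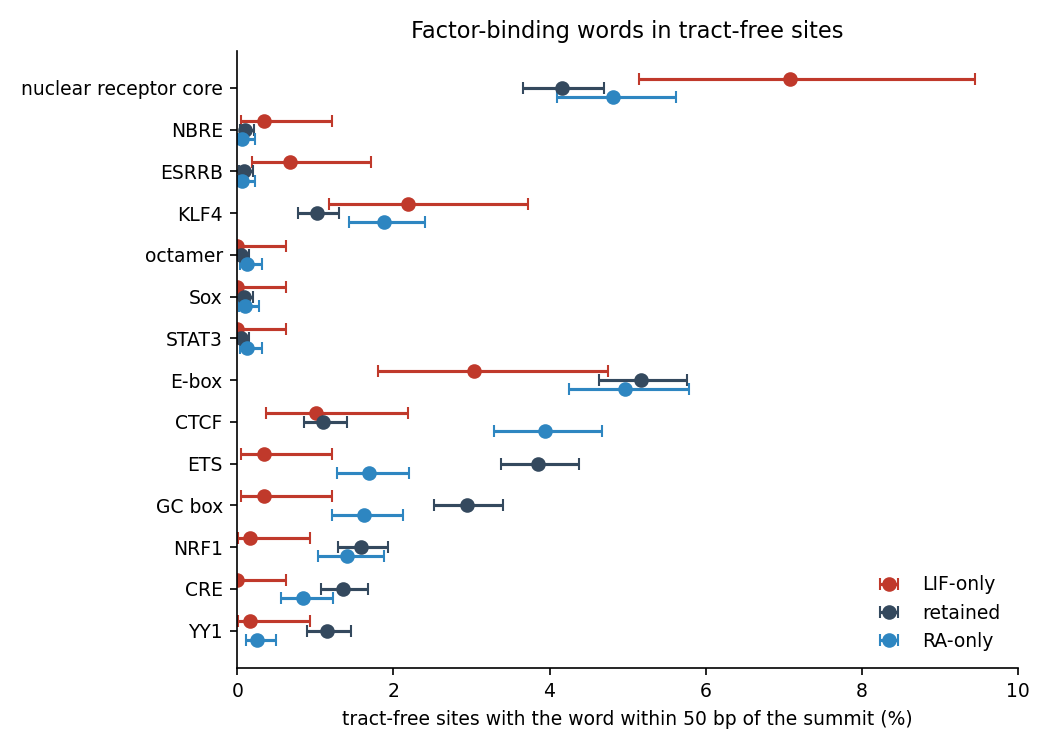
Share of tract-free sites with each word within 50 bp of the summit, in percent, for 593 LIF-only, 5989 retained and 3198 RA-only sites; bars are exact 95% intervals. The ETS word is at 0.337% of LIF-only against 3.86% of retained sites, and the nuclear receptor core word at 7.08% against 4.16%.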

How the data were processed

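Peak lists of 8 ChIP-seq libraries were used: 3 from ESCs in LIF and 5 from RA-treated NCs. The authors used Bowtie 1.0 to place reads on mm10, keeping those with 1 match, and ran MACS2 on every library by itself with a p threshold of 1e-05; no control library is named. In the deposited lists, fold is a ratio of summit pileup over local background, the −log10 p and −log10 q are those of the summit, and the score follows from the p-value.

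Peaks of the LIF lists were merged where they shared at least 1 bp and matched to the RA lists in the same way. Fragments at a summit and the background were solved from the deposited fold and −log10 p, within 0.002 for 100% of peaks, since the lists state no depth. The solution and the merging were tested on simulated data. The background of a library is the lowest solved in its list, and fragments per kb is that value divided by the smallest peak width. Positions are in mm10, counted from 1, and sequence and annotation are GRCm38 with GENCODE M21. A site belonged to the first class it overlapped by at least 20 bp, in the order proximal promoter, distal promoter, gene body. A tract is the longest purine-pyrimidine alternation in the site, of at least 20 bp. Shares carry exact Clopper-Pearson intervals at 95% for counting error only. With 1 library for most groups no test between states was possible, and no p-value was computed.

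Genes were named by rule: listed genes with a LIF-only site in a proximal promoter, the 12 with the strongest tract-free promoter sites, the 8 with the strongest promoter sites of all 3 factors, the 5 with the most sites in the gene, and the 5 strongest sites with and without a tract outside promoters, ranked by the weakest −log10 p at the site. Of the genes with most sites, those tied at 2 are not named. A few items that met the rule are not reported here. The sites and the gene lists were chosen with earlier results of these data known. Alternatives covered peak strength, matching, each RA list, equal list lengths, chromosomes, promoter and tract definitions, and, chosen after seeing the data, depth matching on both scales and each further list left out. Tools were Python 3.11.15, numpy 2.4.6, pandas 2.3.3 and scipy 1.17.1.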

Additional observations from a re-analysis of the deposited data

How the results depend on the processing

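The number of LIF-only sites was 1265 as reported. It was 810 with a −log10 p of at least 10 in all lists, 541 with that limit in the LIF lists alone, 593 with tract sites left out and 2591 when only the RA lists of the factors at the site had to be avoided. Without FGFR1_RA replicate 1 it was 2028 and without replicate 2 it was 1539, so replicate 1 moved the count most among the RA lists. Chosen after seeing the data, it was 438 with LIF peaks kept only at the RA calling limit scaled by fragments per kb (873 when scaled by background, within 1.5 times), 328 without the RXR_LIF list, 804 without FGFR1_LIF and 305 without Nur77_LIF. The other alternatives stayed within 1.5 times the reported count.

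The share of co-bound sites without an RA peak, 10.8% as reported, was 11.9% with a −log10 p of at least 10 in all lists, 7.92% with it in the LIF lists alone, 8.86% with no RA peak within 500 bp, 22.2% with the RA lists of the same factors, 14.2% with equal list lengths and 9.01% without tract sites. Without either FGFR1_RA replicate it ranged from 13.2% to 17.4%. It was 6.74% at the RA calling limit (8.78% scaled by background), 6.55% without RXR_LIF, 9.33% without FGFR1_LIF, 5.17% without Nur77_LIF, 12.3% without RXR_RA and 15.5% without Nur77_RA.

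The proximal promoter share, 20% as reported, was 15.2% and 11.6% under the limits of 10 in all lists and in the LIF lists, 22.8% with matching by 50% of the shorter peak, 10.3% with no RA peak within 500 bp, 39.8% with the RA lists of the same factors, 14.6% with equal list lengths, 16.3% with promoters of 500 bp, 15.2% with protein-coding starts and 36.1% without tract sites. Without either FGFR1_RA replicate it ranged from 26.9% to 32.2%. It was 12.6% at the RA calling limit, 9.15% without RXR_LIF, 25.5% without FGFR1_LIF, 12.1% without Nur77_LIF and 17.3% without Nur77_RA. It was below the retained share in 21 of 21 settings, which drew on the same libraries and are not independent of the rule.

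The tract share, 53.1% as reported, was 73.3% and 78.7% under the limits of 10, 59.2% with no RA peak within 500 bp, 37.8% with the RA lists of the same factors, 74.7% with equal list lengths and 42.0% with tracts of at least 30 bp. Without either FGFR1_RA replicate it ranged from 43.9% to 45.6%. It was 78.1% at the RA calling limit (63.3% scaled by background), 79.6% without RXR_LIF, 40.9% without FGFR1_LIF, 71.8% without Nur77_LIF and 58.9% without Nur77_RA. It was above the retained share in 17 of 19 settings, the exceptions being the RA lists of the same factors and the list without FGFR1_LIF (40.9% against 42.6%). The cause of these moves was not tested.

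A summit rested on a median of 10 or 11 fragments at LIF-only sites. RXR_RA had 0.264 times the depth of RXR_LIF by fragments per kb and 0.382 times by background. The part of depth in which sites were listed was not tested. No paired analysis was possible because the groups share fewer than 2 replicate numbers and the result comes from no test.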
